A study of Mus musculus with 8 samples.

Results

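Long intergenic non-coding RNAs are transcripts made from stretches of the genome that lie between protein-coding genes. The microarray used here carried 16251 probes for intergenic transcripts. Of these, 6241 (38.4%) were described, because the scanner software called the spot well above background on both arrays of at least 1 group. They belong to the 29755 probes tested, of which 17403 were coding probes. The 6241 probes lay in 2294 of the 3555 loci of the array, 870 with 1 such probe and 1424 with 2 or more. Loci were 67 to 533972 bases long, with a median of 9669. Coordinates are in mm9, the mouse build named in the file headers. Of the probes, 2921 carry the letter F and 3293 the letter R, which are read here as forward and reverse strand although the files do not define them. A few more, as at chr17:012941161-012944859, have coordinates but no letter. Another 22 probes are named for 8 transcripts: NEAT1, NEAT2, TUG1, XIST, H19, HOTAIR, NRON and KCNQ1ot1, all established non-coding RNAs. For the other loci the files hold nothing on coding potential, so the class rests on the array design.

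RNA came from freshly isolated CD4 single-positive thymocytes of mice, lysed without culture, in 4 sorted populations with 2 biological replicates each. The conventional CD4 T cells (WT Tconv), of wild-type mice, were sorted as CD25-low. WT Treg were wild-type thymic regulatory T cells, sorted as Foxp3+. Nr4a-TKO preTreg were regulatory T cell precursors of the genotype Nr4a-TKO, sorted as CD25-high, GITR-high and Nr4a3-high. Foxp3-KO preTreg were precursors of the genotype Foxp3-KO, sorted as CD25high and Foxp3-reporter+. The labels do not describe the alleles, the age or sex of the mice, or any pooling. No wild-type precursors were among the samples, so genotype and sort gate change together between a precursor group and a wild-type group. The precursor groups were also sorted by different gates, so genotype and gate change together between them too.

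Non-coding RNAs work in several ways. NEAT1 is the scaffold RNA of nuclear paraspeckles, and NEAT2, better known as Malat1, is an abundant RNA of nuclear speckles. XIST coats and silences the inactive X chromosome of female cells, and H19 and KCNQ1ot1 are imprinted. Many other intergenic transcripts are made in few cell types and have no known role. Foxp3 is the transcription factor that defines regulatory T cells, and the Nr4a proteins are nuclear receptors induced by T cell receptor signals.

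All intergenic probes of NEAT1, of NEAT2 and of TUG1 were called together in at least 1 comparison. The promoter windows of NEAT2 (Malat1) and TUG1 (Tug1) are shown, and NEAT1 is named only. The sequences, from RefSeq, are 300 bases around each transcription start in GRCm38.p6, a later build than that of the array. The 250 bases before the start are in lower case and the 50 bases from the start are in capitals. Malat1 lies at chr19:5802623-5802922 and Tug1 at chr11:3648765-3649064, both on the minus strand.
Malat1: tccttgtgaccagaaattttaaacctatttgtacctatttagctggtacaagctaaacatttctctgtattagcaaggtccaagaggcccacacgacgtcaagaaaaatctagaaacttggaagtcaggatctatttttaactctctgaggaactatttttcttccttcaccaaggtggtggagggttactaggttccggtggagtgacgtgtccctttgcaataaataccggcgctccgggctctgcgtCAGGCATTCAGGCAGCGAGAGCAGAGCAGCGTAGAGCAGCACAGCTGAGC
Tug1: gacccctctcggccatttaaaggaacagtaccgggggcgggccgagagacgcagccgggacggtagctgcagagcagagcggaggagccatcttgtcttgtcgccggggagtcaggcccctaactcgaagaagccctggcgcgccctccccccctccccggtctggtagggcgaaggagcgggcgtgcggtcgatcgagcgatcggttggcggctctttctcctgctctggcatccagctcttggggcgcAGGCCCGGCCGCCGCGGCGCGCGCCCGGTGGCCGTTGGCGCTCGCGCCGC
G and C make up 47.0% of the Malat1 stretch and 71.3% of the Tug1 stretch. A pair of motifs was searched on both strands: AAAGGTCA, which Nr4a proteins bind as monomers, and GTAAACA, a forkhead motif. These letters are in neither window. Of 32851 promoter windows of this length, 495 (1.51%) hold the first motif and 1199 (3.65%) the second.

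Between 30.6% and 38.1% of the intergenic probes of an array were well above background. Levels are log2 of the processed signal minus the 75th percentile of the array. The 6241 probes had a median level of -2.42, and the coding probes tested 0.40. Across the 6241 probes, which are not independent, Pearson's r between the replicates of a group ran from 0.966 (Foxp3-KO) to 0.989 (WT Tconv). A number in the array names is read here as the slide row, although the names do not define it. By this reading WT Tconv and Nr4a-TKO arrays lay in row 1 and Foxp3-KO and WT Treg arrays in row 2. Across rows this number cannot be told apart from the group. The Foxp3 probe read -3.57 and -3.95 in WT Tconv, 4.84 and 4.56 in WT Treg, 3.61 and 3.09 in Nr4a-TKO, and 1.79 and 1.58 in Foxp3-KO, and the Nr4a1 probe 6.67 and 6.68 in WT Tconv, 7.12 and 7.46 in WT Treg, 7.54 and 7.79 in Nr4a-TKO, and 6.99 and 7.44 in Foxp3-KO. The parts of these genes that were deleted are unknown here, so the probes do not check the genotypes. All 7 regulatory T cell markers exceeded WT Tconv in each of the other 3 groups. They include Il2ra (CD25), Tnfrsf18 (GITR) and Foxp3, which the sort gates used, so the sorting itself favours that direction for these genes.

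Of the 6241 probes, 4255 were above background on all 8 arrays. Another 869 passed through 1 group alone: 492 through WT Tconv, 273 through Nr4a-TKO, 71 through WT Treg and 33 through Foxp3-KO. Of the 869, 291 were above background on no other array. A probe that passed only through the group where it is high was selected on that difference, so such probes are given by their levels with no test, and the counts are also given for the 4255. No share over all probes tested was taken under that limit. Beside the counts of each comparison stand coding probes under the same limit, weighted to the same brightness as described below, which were added after seeing the data. Just inside the threshold lay A_30_P01021655, which read -4.46 and -3.80 in Nr4a-TKO and was not well above background on both arrays of any other group. Just outside lay A_30_P01025888, which read -4.08 and -3.01 in WT Tconv, -2.47 and -3.87 in WT Treg, -4.28 and -4.72 in Nr4a-TKO, and -4.97 and -3.61 in Foxp3-KO. The brightest probe, A_30_P01031754 at chr19:5801802-5802597, read 9.65 and 9.80 in WT Tconv, 9.41 and 9.50 in WT Treg, 9.53 and 9.64 in Nr4a-TKO, and 9.30 and 9.31 in Foxp3-KO.

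Differences are log2 values ± SE from limma with 2 arrays a group, and a probe was called at a Benjamini-Hochberg adjusted p under 0.05 over all 29755 probes. Among the 4 groups, 2527 of the 6241 probes (40.5%) differed by the F test, against 46.4% of all probes tested. Among the 4255 above background on all arrays 1820 (42.8%) differed, and no share over all probes was taken under that limit. Nr4a-TKO had the lowest mean for 1383 of the 2527 (54.7%), and WT Tconv the highest for 1048 (41.5%). A probe that passed through 1 group alone tends to be highest there because of the filter, and these ranks were not counted for the 4255. Among the 8750 coding probes that differed, Nr4a-TKO was lowest for 34.8% and WT Tconv highest for 38.9%. Without WT Tconv replicate 1 or 2 the count was 1072 or 1061, and without Nr4a-TKO replicate 1 it was 1480.

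NEAT1 was higher in Nr4a-TKO than in each of the other groups with all 5 of its probes. The median of the 5 probes read 3.75 and 3.72 in WT Tconv, 3.97 and 3.78 in WT Treg, 4.92 and 4.67 in Nr4a-TKO, and 3.71 and 3.76 in Foxp3-KO. Both Nr4a-TKO arrays lay above the other 6, and WT Tconv and Foxp3-KO overlapped. Probe A_30_P01029720 differed by 1.09 ± 0.084 from WT Tconv, a 2.13-fold rise (limma adjusted p = 0.00101), by 0.99 ± 0.084 from WT Treg (0.00168) and by 1.22 ± 0.084 from Foxp3-KO (0.00123). A RefSeq probe for Neat1 differed by 1.17 ± 0.12 between Nr4a-TKO and WT Tconv. No NEAT1 probe passed between WT Treg and WT Tconv or between Foxp3-KO and WT Tconv.

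NEAT2 (Malat1) was lower in WT Treg and in Foxp3-KO than in WT Tconv with all 3 probes named for it. Their median read 3.44 and 3.42 in WT Tconv, 1.57 and 1.91 in WT Treg, 3.03 and 2.99 in Nr4a-TKO, and 2.30 and 2.52 in Foxp3-KO, and no group overlapped another. Probe A_30_P01019221 differed by -1.61 ± 0.11 in WT Treg, 3.06-fold lower (limma adjusted p = 0.000880), and by -1.07 ± 0.11 in Foxp3-KO (0.00556). It stood higher in Nr4a-TKO, both relative to WT Treg (1.32 ± 0.11, adjusted p = 0.00157) and relative to Foxp3-KO (0.78 ± 0.11, 0.00752). Between Nr4a-TKO and WT Tconv no NEAT2 probe passed. A RefSeq probe for Malat1 gave -1.64 ± 0.10 in WT Treg and -1.08 ± 0.10 in Foxp3-KO against WT Tconv. The brightest intergenic probe, given above, has coordinates close to those of the Malat1 window, which is in a later build. Its levels differed less between the groups, and whether it belongs to Malat1 was not determined.

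TUG1, a widely expressed RNA, was lower in Nr4a-TKO. The median of its 5 probes read 1.22 and 1.16 in WT Tconv, 1.05 and 1.07 in WT Treg, 0.67 and 0.70 in Nr4a-TKO, and 1.06 and 1.27 in Foxp3-KO. All 5 were lower in Nr4a-TKO than in WT Tconv and than in Foxp3-KO, and 3 of 5 were lower than in WT Treg. For A_30_P01017489 the difference from WT Tconv was -0.59 ± 0.092 (limma adjusted p = 0.00610). A RefSeq probe for Tug1 read 1.22 and 1.31 in WT Tconv and 1.31 and 1.30 in Nr4a-TKO and was not called (0.037 ± 0.080, adjusted p = 0.729), so probes of this transcript disagree. Of 2 probes for NRON, a repressor of nuclear import of NFAT, 1 was lower in Nr4a-TKO than in WT Tconv (-0.61 ± 0.17, adjusted p = 0.0335). The KCNQ1ot1, H19 and HOTAIR probes passed in none of the 6 comparisons.

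**Figure D1:**
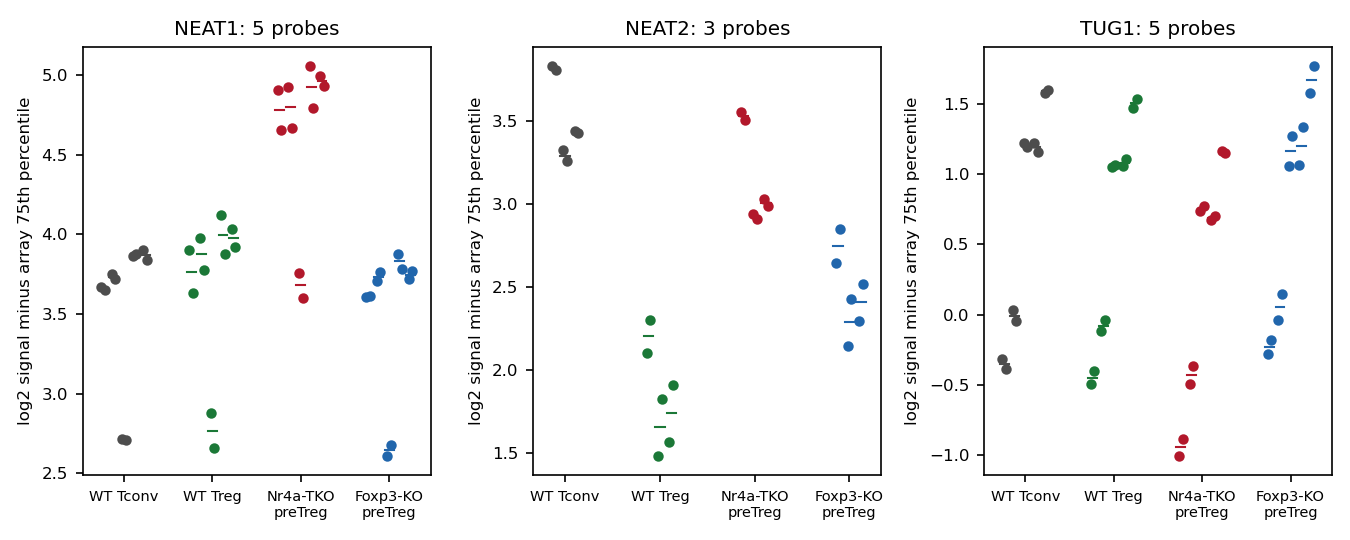
Level of each probe of the named transcripts on every array, as log2 signal minus the 75th percentile of the array, with 2 arrays per group. Points are arrays and each short line is the mean of the 2 arrays for 1 probe. The NEAT1 probes are each highest in Nr4a-TKO, the NEAT2 probes lowest in WT Treg, and the TUG1 probes lowest in Nr4a-TKO.

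XIST stood apart on 1 array. Probe A_30_P01023652 read -6.50 and -6.62 in WT Tconv, -6.15 and -3.02 in WT Treg, -5.63 and 4.50 in Nr4a-TKO, and -3.35 and -3.34 in Foxp3-KO, and A_30_P01022001 read -6.62 and -5.66 in WT Tconv, -6.24 and -6.30 in WT Treg, -4.36 and 3.94 in Nr4a-TKO, and -2.04 and -3.87 in Foxp3-KO. Nr4a-TKO replicate 2 was the only array with a level above 0 on these probes. The Y-linked gene Ddx3y read 2.48 and 2.40 in WT Tconv, 2.19 and 2.16 in WT Treg, 2.18 and 1.08 in Nr4a-TKO, and 2.33 and 2.60 in Foxp3-KO, lowest on the same array. XIST passed in none of the 6 comparisons. Without this array 1880 probes were called between Nr4a-TKO and WT Tconv, in place of 2311.

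WT Treg against WT Tconv compares wild-type regulatory with conventional T cells. Of the 6241 probes, 493 were higher (7.90%, against 10.4% of all probes tested) and 524 lower (8.40%, against 14.0%), together 16.3% against a background of 24.3%. Among the 4255 above background on all arrays 335 were higher and 368 lower. Among probes above background on all 4 arrays compared, the largest increases lay at chr1:69531191-69570566, where all 5 probes, marked R, rose. Their median read -1.47 and -1.35 in WT Tconv, 3.90 and 3.67 in WT Treg, 2.23 and 1.92 in Nr4a-TKO, and 3.52 and 3.52 in Foxp3-KO, with WT Tconv lowest and WT Treg highest and no overlap between groups. Probe A_30_P01024742 rose 37.2-fold in WT Treg (5.22 ± 0.16, limma adjusted p = 0.000150). It rose by 3.67 ± 0.16 in Nr4a-TKO (0.000282) and by 4.96 ± 0.16 in Foxp3-KO (0.000204), and was lower in Nr4a-TKO than in WT Treg (-1.55 ± 0.16, 0.00283). A shorter locus inside it, chr1:69555180-69555559, held A_30_P01021987 (5.14 ± 0.20) and A_30_P01024279 (5.10 ± 0.22).

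At chr6:129151512-129208737, 15 of 16 probes rose over WT Tconv in WT Treg, 15 in Foxp3-KO and 14 in Nr4a-TKO. Probe A_30_P01024775 at chr19:53517903-53540753 read -4.01 and -4.22 in WT Tconv, 0.62 and 0.78 in WT Treg, -0.77 and -1.41 in Nr4a-TKO, and 0.58 and 0.68 in Foxp3-KO. It was lowest in WT Tconv, and differed from WT Tconv by 4.82 ± 0.22 in WT Treg (limma adjusted p = 0.000324) and by 4.74 ± 0.22 in Foxp3-KO (0.000552).

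Where a probe was not well above background on both arrays of a group, a lower bound is given. It sets the mean of the brighter group against, per array, the faintest signal called well above background or the probe's own value, whichever is higher. Probe A_30_P01033583 at chr9:78107225-78118850 was in that state in WT Tconv and read 1.40 and 1.46 in WT Treg, -2.37 and -3.26 in Nr4a-TKO, and 0.88 and 1.07 in Foxp3-KO. It was at least 66.1-fold higher in WT Treg (limma adjusted p = 0.000337) and at least 48.3-fold in Foxp3-KO (0.000638), each relative to WT Tconv. Nr4a-TKO was lower than WT Treg there (-4.24 ± 0.28, adjusted p = 0.000990). At chr12:111617728-111665403 probe A_30_P01024133 read -0.55 and 0.15 in WT Treg, -3.01 and -3.84 in Nr4a-TKO, and -1.14 and -3.64 in Foxp3-KO and was at least 28.1-fold higher in WT Treg than in WT Tconv (adjusted p = 0.0129). Its Foxp3-KO replicates lay far apart.

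The largest decreases from WT Tconv to WT Treg among probes above background on all 4 arrays compared included several on chromosome 16. At chr16:90008636-90015586, 6 of 7 probes fell in WT Treg, 4 in Foxp3-KO and 6 in Nr4a-TKO. Probe A_30_P01029411 read 1.11 and 1.18 in WT Tconv, -1.61 and -1.86 in WT Treg, -1.63 and -0.76 in Nr4a-TKO, and -0.78 and -0.17 in Foxp3-KO. Both WT Tconv arrays lay above the other 6, and the difference from WT Tconv was -2.87 ± 0.33 for WT Treg (limma adjusted p = 0.00421), -2.34 ± 0.33 for Nr4a-TKO (0.00478) and -1.62 ± 0.33 for Foxp3-KO (0.0300). At chr16:90038086-90127636, 7 of 12 probes were lower in WT Treg, and A_30_P01021389 differed by -3.13 ± 0.43 (adjusted p = 0.00681). At chr12:33606225-33638225 all 5 probes were lower in WT Treg and in Nr4a-TKO. The 5 include A_30_P01031471, which was selected through WT Tconv, so its lower level elsewhere is no separate support. Probe A_30_P01027244 there read 0.48 and 0.36 in WT Tconv, -3.17 and -3.89 in WT Treg, -5.63 and -3.86 in Nr4a-TKO, and -2.78 and -2.04 in Foxp3-KO, above background on 6 of 8 arrays. It differed from WT Tconv by -3.95 ± 0.61 in WT Treg (limma adjusted p = 0.00950), -2.83 ± 0.61 in Foxp3-KO (0.0336) and -5.17 ± 0.61 in Nr4a-TKO (0.00290). Its level on Nr4a-TKO replicate 1 lay below the faintest signal called well above background on that array (-4.68). The size of the fitted Nr4a-TKO difference is therefore uncertain. A_30_P01031471, 1 of the 5 and a member only through WT Tconv, read -0.56 and -0.71 in WT Tconv, -6.29 and -5.89 in WT Treg, -6.94 and -6.05 in Nr4a-TKO, and -3.97 and -3.38 in Foxp3-KO, highest in WT Tconv and not well above background in WT Treg or Nr4a-TKO.

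Of 6 markers of CD8 T cells and double positive thymocytes, 3 were below WT Tconv in WT Treg and 3 in Nr4a-TKO. None passed in Foxp3-KO, and Cd8a was not lower in Nr4a-TKO (0.32 ± 0.36) or Foxp3-KO (0.62 ± 0.36). The log2 level of the markers' summed signal was 6.18 and 6.20 in WT Tconv, 3.38 and 3.09 in WT Treg, 2.09 and 3.06 in Nr4a-TKO, and 4.53 and 5.34 in Foxp3-KO. In WT Tconv the sum was led by Ccr9 (5.70 and 5.72) and Dntt (4.11 and 4.12). The part of these cells in the result was not tested. In bulk RNA fewer cells of a type and less RNA per cell cannot be told apart. With median scaling 382 probes were higher and 1001 lower in WT Treg, and with the percentile taken over probes above background on all arrays 567 and 421. Without WT Tconv replicate 1 or 2 the 1017 calls became 270 or 268, and without WT Treg replicate 1 or 2 they became 467 or 486.

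**Figure D2:**
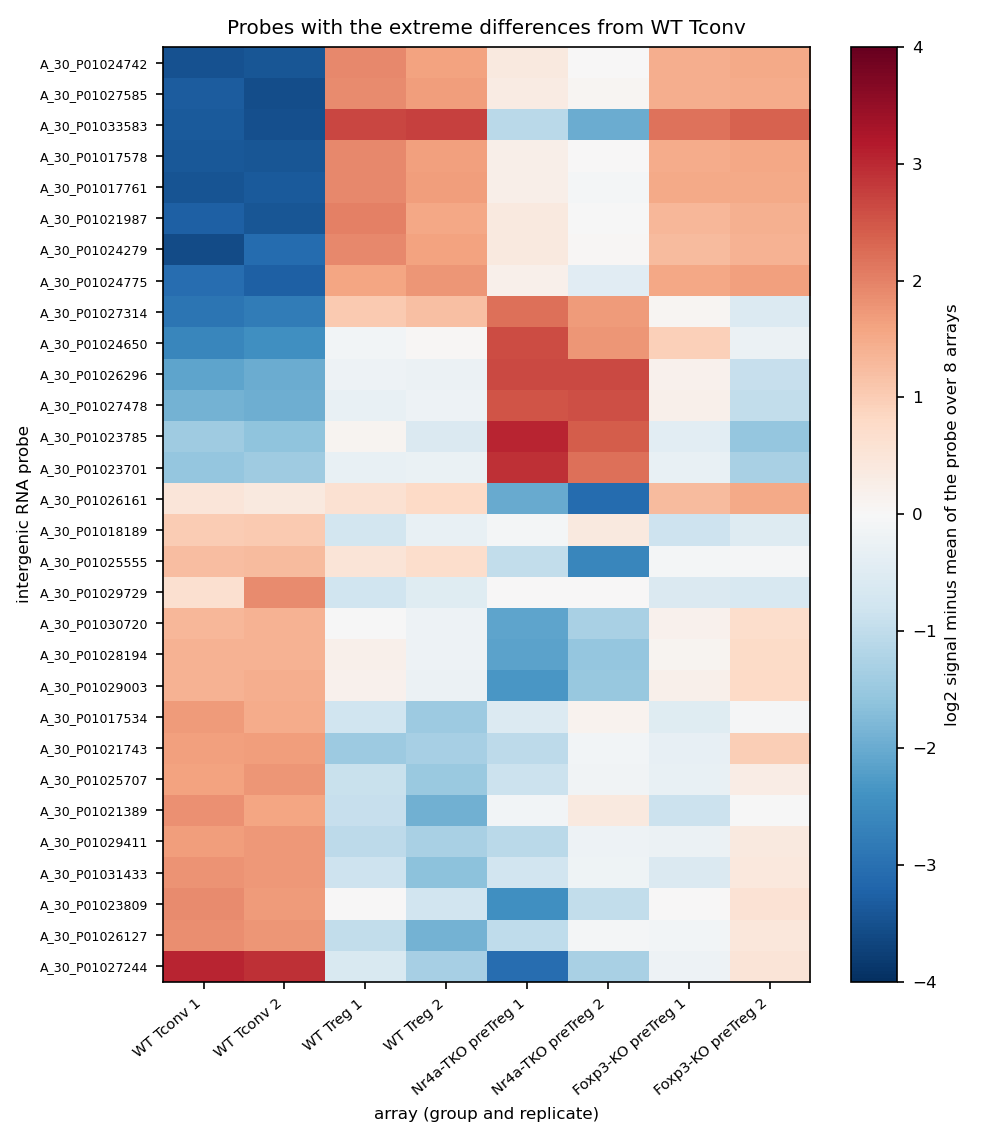
Intergenic RNA probes with the most extreme measured differences from WT Tconv, 1 row per probe, on the 8 arrays. Colour is log2 signal minus the mean of the probe over the 8 arrays, on a scale from -4 to 4. Probe A_30_P01024742 is lowest in WT Tconv, and A_30_P01029411 is highest in WT Tconv.

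Nr4a-TKO preTreg against WT Tconv gave more called intergenic probes than the other 5 comparisons, and most were lower in Nr4a-TKO. Of the 6241 probes, 548 were higher (8.78%, against 15.5% of all probes tested) and 1763 lower (28.2%, against 25.9%), together 37.0% against a background of 41.4%. Among the 4255 above background on all arrays 301 (7.07%) were higher and 1379 (32.4%) lower, beside 16.1% and 23.8% of coding probes. The median difference was -0.30 for the 6241 probes, -0.12 for coding probes and -0.17 for all probes tested. Without WT Tconv replicate 1 or 2 the 2311 calls became 983 or 1007, and without Nr4a-TKO replicate 1 they became 1229.

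Among the decreases, all 3 probes at chr10:62267317-62269871 fell. Their median read 0.62 and 0.70 in WT Tconv, -0.71 and -0.91 in WT Treg, -2.82 and -1.99 in Nr4a-TKO, and -0.53 and 0.0090 in Foxp3-KO, and both Nr4a-TKO arrays lay below the other 6. Probe A_30_P01028194 differed by -3.24 ± 0.29 from WT Tconv, 9.43-fold lower (limma adjusted p = 0.00151), and by -1.85 ± 0.29 from WT Treg (0.00951). At chr1:161992257-161992963 all 3 probes were lower in Nr4a-TKO than in each other group. Probe A_30_P01026161 read 1.35 and 1.23 in WT Tconv, 1.46 and 1.65 in WT Treg, -1.17 and -2.24 in Nr4a-TKO, and 2.12 and 2.37 in Foxp3-KO. Its Nr4a-TKO arrays alone lay below 0, and the difference was -2.99 ± 0.34 from WT Tconv (adjusted p = 0.00260) and -3.95 ± 0.34 from Foxp3-KO (0.00203).

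Some loci fell across many probes. At chr11:95627874-95640824, 15 of 17 probes were lower in Nr4a-TKO than in WT Tconv, 7 were lower in WT Treg, and in Foxp3-KO none passed. The median over the probes read 0.31 and 0.20 in WT Tconv, -0.19 and -0.23 in WT Treg, -1.53 and -1.27 in Nr4a-TKO, and -0.059 and 0.32 in Foxp3-KO, and the Nr4a-TKO arrays lay below the other 6. At chr14:65431652-65437902 11 of 14 probes were lower in Nr4a-TKO, at chr1:138528250-138538250 11 of 13, and at chr11:117835849-117842574 8 of 10.

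Fewer probes rose in Nr4a-TKO. At chr10:94870971-94871658 probe A_30_P01027314 read -3.98 and -3.85 in WT Tconv, -0.0013 and 0.15 in WT Treg, 1.15 and 0.66 in Nr4a-TKO, and -0.98 and -1.59 in Foxp3-KO, lowest in WT Tconv. It rose by 4.82 ± 0.25 in Nr4a-TKO (limma adjusted p = 0.000385), 3.99 ± 0.25 in WT Treg (0.000697) and 2.63 ± 0.25 in Foxp3-KO (0.00445). At chr2:128137419-128141735 the 3 probes were higher in Nr4a-TKO than in each other group, with a median of -3.65 and -3.84 in WT Tconv, -2.28 and -2.75 in WT Treg, 0.83 and 0.20 in Nr4a-TKO, and -2.64 and -3.74 in Foxp3-KO. Probe A_30_P01023785 rose 19.1-fold over WT Tconv (4.26 ± 0.44, adjusted p = 0.00211), and in WT Treg it differed by 1.29 ± 0.44 from WT Tconv without passing (0.0882). At chr2:128211990-128215223 probe A_30_P01033039 rose by 4.01 ± 0.52 over WT Tconv (0.00366).

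At chr5:96591892-96606467 all 5 probes were higher in Nr4a-TKO than in each other group. Probe A_30_P01027478 read -0.89 and -0.93 in WT Tconv, 0.72 and 0.80 in WT Treg, 3.51 and 3.58 in Nr4a-TKO, and 1.22 and 0.031 in Foxp3-KO, with both Nr4a-TKO arrays above the rest, and rose by 4.46 ± 0.36 over WT Tconv (limma adjusted p = 0.00113). The following 3 probes are members only through Nr4a-TKO, where they are high. At chr4:88583425-88584070, A_30_P01019307 read -6.75 and -5.76 in WT Tconv, -4.08 and -4.16 in WT Treg, 0.50 and 0.56 in Nr4a-TKO, and -3.48 and -4.77 in Foxp3-KO, and was not well above background in WT Tconv or WT Treg. In the same locus A_30_P01027753 read -6.51 and -6.64 in WT Tconv, -5.58 and -6.24 in WT Treg, -0.57 and -0.55 in Nr4a-TKO, and -5.92 and -6.27 in Foxp3-KO, above background on the Nr4a-TKO arrays alone. Probe A_30_P01029464 at chr5:53931541-53945241 read -6.81 and -6.93 in WT Tconv, -6.42 and -6.50 in WT Treg, -1.93 and -1.66 in Nr4a-TKO, and -6.24 and -6.22 in Foxp3-KO and was likewise above background on those arrays alone.

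Markers of other cell types also differed in Nr4a-TKO. All 5 B cell markers tested were higher in Nr4a-TKO than in WT Tconv, and the log2 level of the list's summed signal was 0.23 and 0.094 in WT Tconv, 2.09 and 1.57 in WT Treg, 5.82 and 3.81 in Nr4a-TKO, and 4.05 and 1.77 in Foxp3-KO. In WT Tconv 4 of the 6 on the array were not well above background. Of 10 myeloid and dendritic cell markers, 8 were higher and 1 lower (Itgam, -0.34 ± 0.085, limma adjusted p = 0.0255) in Nr4a-TKO, and higher were 4 in WT Treg and 5 in Foxp3-KO, and the summed signal was 5.38 and 5.45 in WT Tconv, 6.53 and 5.78 in WT Treg, 7.81 and 7.27 in Nr4a-TKO, and 7.33 and 6.70 in Foxp3-KO. Of 6 markers of NK and innate-like T cells 2 were higher and 2 lower in Nr4a-TKO, 3 were lower in WT Treg, and 1 was higher and 1 lower in Foxp3-KO. Of 5 T cell markers tested 4 were lower in WT Treg and 2 in Nr4a-TKO, and 1 of 4 stroma and epithelium markers was higher in each of the 3 groups. Alas2 of the red cell list and Col3a1 and Krt8 of the stroma list were above background on no array. The part of these cells in the results was not tested.

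Foxp3-KO preTreg against WT Tconv gave fewer calls. Of the 6241 probes, 349 were higher (5.59%, against 7.32% of all probes tested) and 525 lower (8.41%, against 9.69%), together 14.0% against a background of 17.0%. Among the 4255 above background on all arrays 219 (5.15%) were higher and 368 (8.65%) lower, beside 7.92% and 8.90% of coding probes. Increases included those at chr1:69531191-69570566 and chr19:53517903-53540753 given above. Among the decreases, A_30_P01018189 at chr2:174088550-174109425 read -1.54 and -1.50 in WT Tconv, -3.29 and -2.85 in WT Treg, -2.61 and -2.16 in Nr4a-TKO, and -3.38 and -3.07 in Foxp3-KO, highest in WT Tconv (-1.70 ± 0.22 in Foxp3-KO, limma adjusted p = 0.0104). With median scaling 315 were higher and 1307 lower, and with the percentile taken over probes above background on all arrays 384 and 364. Without WT Tconv replicate 1 or 2 the 874 calls became 115 or 124, and without Foxp3-KO replicate 1 they became 476.

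Foxp3-KO preTreg against WT Treg, both read as slide row 2, gave the fewest calls of the 6 comparisons. Nr4a-TKO against WT Tconv, both read as slide row 1, gave the most. Of the 6241 probes, 46 were higher in Foxp3-KO than in WT Treg (0.737%, against 1.71% of all probes tested). Lower were 104 (1.67%, against 1.77%), together 2.40% against a background of 3.48%. Among the 4255, 18 were higher and 65 lower. Probe A_30_P01026164 at chr12:81217572-81233910 read -2.61 and -2.78 in WT Tconv, 0.14 and 0.067 in WT Treg, -0.80 and -0.84 in Nr4a-TKO, and -1.30 and -1.60 in Foxp3-KO. Foxp3-KO lay between WT Tconv and WT Treg without overlap, and was lower than WT Treg (-1.55 ± 0.13, limma adjusted p = 0.0104). At chr6:31115515-31168433 all 3 probes were lower in Foxp3-KO than in WT Treg and none passed against WT Tconv. Their median read 0.72 and 0.65 in WT Tconv, 2.30 and 2.38 in WT Treg, 2.93 and 2.60 in Nr4a-TKO, and 1.36 and 0.70 in Foxp3-KO. Higher in Foxp3-KO than in WT Treg were A_30_P01030698 at chr11:16831925-16851121 (1.20 ± 0.13, adjusted p = 0.0180) and A_30_P01030626 at chr10:18036490-18059965 (0.92 ± 0.10, 0.0179). A_30_P01028958 at chr1:138528250-138538250 was above background in Foxp3-KO alone, through which it was selected, and read -6.61 and -6.72 in WT Tconv, -6.24 and -6.30 in WT Treg, -6.40 and -6.73 in Nr4a-TKO, and -2.22 and -1.76 in Foxp3-KO.

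These 150 calls moved with single arrays. They became 13 without WT Tconv replicate 1 and 13 without replicate 2, 39 and 17 without WT Treg replicate 1 and 2, 67 and 67 without Nr4a-TKO replicate 1 and 2, and 249 without Foxp3-KO replicate 1. A limma fit of these 2 groups alone called 0 probes, with 1011 at an unadjusted p under 0.05.

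Nr4a-TKO preTreg was also compared with WT Treg and with Foxp3-KO preTreg, and these comparisons share the Nr4a-TKO arrays. Relative to WT Treg, 374 were higher (5.99%, against 12.9% of all probes tested) and 1255 lower (20.1%, against 16.0%), together 26.1% against a background of 28.9%. Relative to Foxp3-KO, 552 were higher, against 13.3% of all probes tested, and 1124 lower, against 15.2%, together 26.9% of the 6241 against a background of 28.4%, or 720 higher and 884 lower with median scaling. Among the 4255, 198 (4.65%) were higher and 991 (23.3%) lower relative to WT Treg, beside 12.9% and 14.6% of coding probes. Relative to Foxp3-KO 319 (7.50%) were higher and 863 (20.3%) lower, beside 12.9% and 14.1% of coding probes. Probe A_30_P01020518 at chr9:78104935-78116974 read -1.02 and -0.91 in WT Treg and -1.40 and -0.96 in Foxp3-KO and was not well above background in WT Tconv or Nr4a-TKO. It was at least 12.7-fold lower in Nr4a-TKO than in WT Treg (limma adjusted p = 0.000990) and at least 10.9-fold lower than in Foxp3-KO (0.00123). Probe A_30_P01018420 at chr3:87757295-87774970 read -3.85 and -3.87 in WT Tconv, -3.28 and -2.79 in WT Treg, -0.096 and -0.12 in Nr4a-TKO, and -2.92 and -3.41 in Foxp3-KO, highest in Nr4a-TKO (2.93 ± 0.22 against WT Treg, 0.00120). The 1629 calls against WT Treg became 801 or 760 without WT Treg replicate 1 or 2 and 759 without Nr4a-TKO replicate 1. The 1676 calls against Foxp3-KO became 1107 or 1107 without WT Tconv replicate 1 or 2, 796 or 1077 without Nr4a-TKO replicate 1 or 2, and 1077 without Foxp3-KO replicate 2.

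Some loci went opposite ways in the precursor groups. Relative to WT Tconv, 50 probes of 28 loci were lower in Nr4a-TKO but rose in Foxp3-KO, and 10 probes of 8 loci the reverse, each also called between the precursor groups. These were 0.801% and 0.160% of the 6241 probes, against 0.471% and 0.309% of all probes tested. Both comparisons share the WT Tconv arrays, and the precursor groups differ in sort gate as well as genotype. Some of the 28 loci overlap or lie close together, as on chromosomes 5 and 17, so their probes are not independent. At chr5:111565658-111566257 all 3 probes, marked F, were lower in Nr4a-TKO and higher in Foxp3-KO. Probe A_30_P01029269 read -1.36 and -1.57 in WT Tconv, 0.71 and 0.72 in WT Treg, -2.79 and -2.78 in Nr4a-TKO, and 0.17 and 0.54 in Foxp3-KO, with WT Tconv between Nr4a-TKO and the other groups. It differed from WT Tconv by -1.33 ± 0.15 in Nr4a-TKO (limma adjusted p = 0.00244), 1.82 ± 0.15 in Foxp3-KO (0.00242) and 2.18 ± 0.15 in WT Treg (0.000844). At chr17:85418489-85427364 6 probes went opposite ways, by -1.45 to -1.12 in Nr4a-TKO and 0.87 to 0.99 in Foxp3-KO. At chr13:28947034-28949166 the 3 probes were lower in Nr4a-TKO than in WT Tconv and than in Foxp3-KO and did not pass between Foxp3-KO and WT Tconv. Their median read 1.28 and 1.15 in WT Tconv, 2.02 and 1.56 in WT Treg, -1.96 and -0.59 in Nr4a-TKO, and 2.61 and 3.26 in Foxp3-KO.

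Intergenic probes were dimmer than coding probes, so both were compared at the same brightness. Coding probes were put into 10 bins at the deciles of the mean level of the 6241 probes and weighted by the number of intergenic probes in each bin. In WT Treg against WT Tconv 25.6% of coding probes were then called, against 16.3% of intergenic probes. In Nr4a-TKO against WT Tconv 23.9% of coding probes were higher and 20.5% lower, where 8.78% of intergenic probes were higher and 28.2% lower. In the dimmest bin the coding median was 1.51 and the intergenic median -0.31, and 0 of its 848 coding and 625 intergenic probes were above background on all 8 arrays. Limited to probes above background on all 8 arrays, a comparison added after seeing the data, coding probes were 16.1% higher and 23.8% lower, and intergenic probes 7.07% and 32.4%. Together 39.9% of coding and 39.5% of intergenic probes were then called. The medians were -0.15 and -0.28. Against WT Treg the same limit gave 12.9% and 14.6% for coding and 4.65% and 23.3% for intergenic probes. No test was run on these shares, since probes of 1 locus are not independent.

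**Figure D3:**
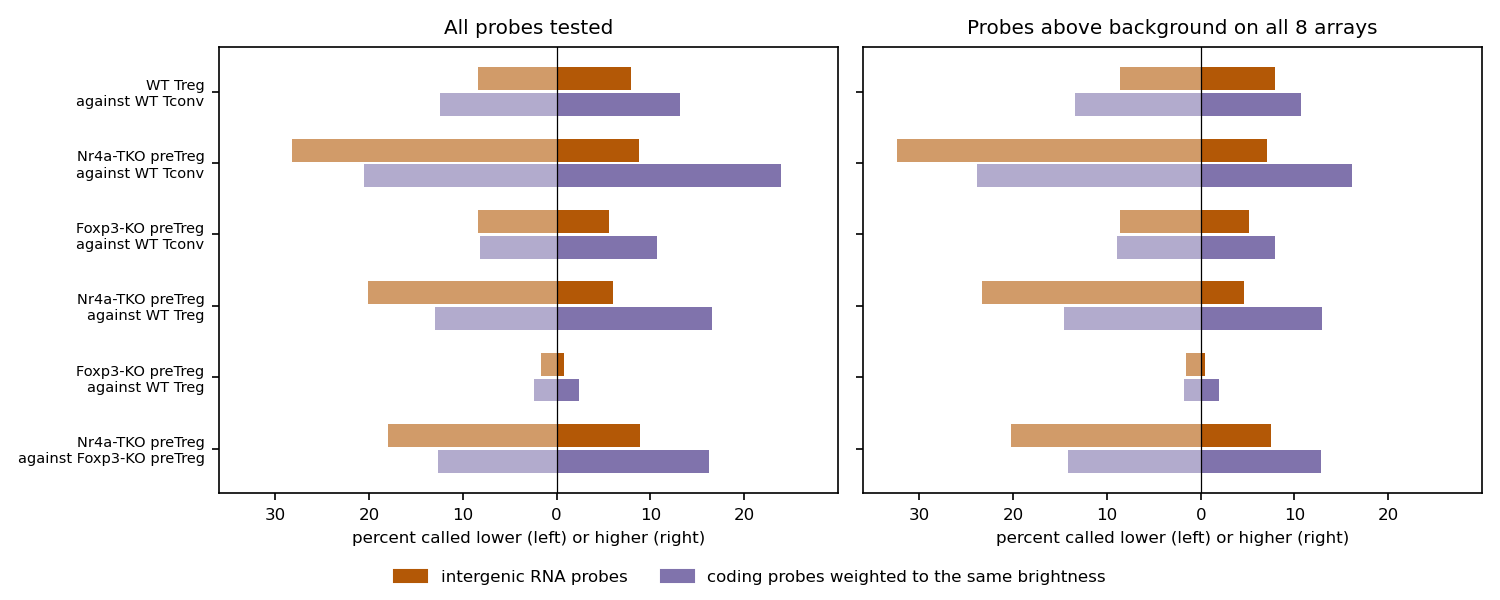
Percent of probes called lower (left) and higher (right) in the 6 comparisons, for intergenic RNA probes and for coding probes weighted to the same brightness, over all probes tested and over probes above background on all 8 arrays. In Nr4a-TKO against WT Tconv the intergenic bars reach further left and less far right than the coding bars.

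**Figure D4:**
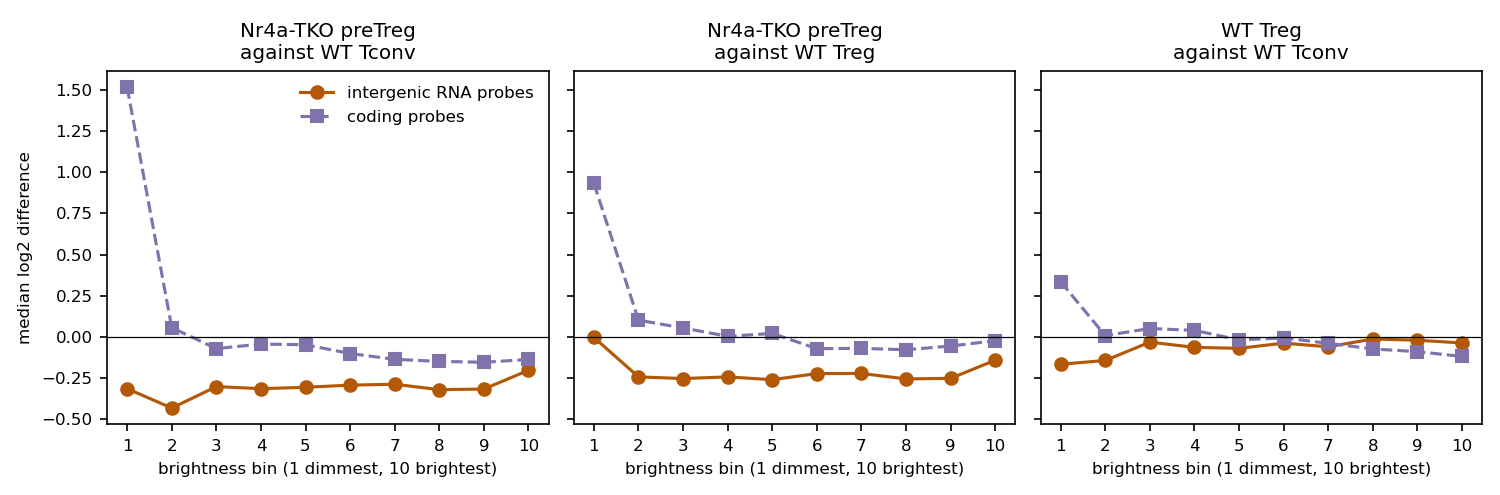
Median log2 difference of intergenic RNA probes and of coding probes in 10 bins of brightness, bin 1 the dimmest, for 3 comparisons. In Nr4a-TKO against WT Tconv the intergenic median lies below the coding median in all 10 bins.

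Of 545 sets of 2 or more called probes on 1 strand of a locus in Nr4a-TKO against WT Tconv, 521 moved in 1 direction, 398 lower and 123 higher. Of all called intergenic probes 76.3% were lower there, a share that by itself favours agreement within sets, and its part was not tested. In WT Treg against WT Tconv, where 51.5% of the called probes were lower, 207 of 211 sets moved in 1 direction. In Nr4a-TKO against WT Tconv 128 of the 1424 loci with several probes had 2 or more called higher, and 412 had 2 or more called lower. In WT Treg against WT Tconv these were 103 and 101. Loci overlap, and all 2294 join into 1537 regions. Of 122 loci with called probes on both strands in Nr4a-TKO against WT Tconv, 94 moved the same way on both (80 lower and 14 higher), 15 opposite ways, and 13 were mixed within a strand. The 76.3% share of lower calls favours agreement between strands too, and its part was not tested. In WT Treg against WT Tconv 30 of 42 moved the same way. By length of locus, 33.7% of 869 probes up to 1 kb were lower in Nr4a-TKO than in WT Tconv, 31.2% of 1751 from 1 to 10 kb, 26.2% of 2773 from 10 to 50 kb and 23.1% of 826 over 50 kb. Lower calls outnumbered higher calls on all 20 chromosomes, and the share called ran from 28.0% on chromosome 8 to 49.3% on chromosome 16.

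**Figure D5:**
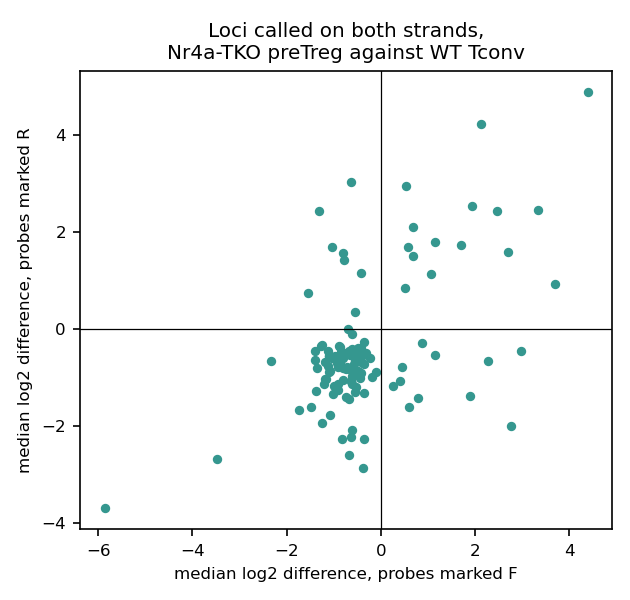
Loci with called probes on both strands in Nr4a-TKO against WT Tconv, 1 point per locus, as the median log2 difference of probes marked F (x axis) and R (y axis). Of the 122 loci, 94 moved the same way on both strands, which the excess of lower calls favours.

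Apart from the intergenic set, 561 probes with a RefSeq accession for a non-coding RNA were tested, and 272 (48.5%) differed among the 4 groups, against 46.4% of all probes tested. Of a list of 40 named non-coding RNAs 24 were tested. Relative to WT Tconv, in WT Treg 2 (8.33%, against 10.4% of all probes tested) were higher and 5 (20.8%, against 14.0%) lower. In Nr4a-TKO 8 (33.3%, against 15.5% of all probes tested) were higher and 6 (25%, against 25.9%) lower. Of the list, 4 were not well above background in WT Tconv, 4 in WT Treg, 4 in Foxp3-KO and 1 in Nr4a-TKO. Any that passed the filter only through Nr4a-TKO were selected on being high there, and they were not separated from the 8. In Foxp3-KO 1 (4.17%, against 7.32% of all probes tested) was higher and 6 (25%, against 9.69%) lower. Their median differences were -0.041, -0.12 and -0.19, beside -0.071, -0.17 and -0.12 over all probes tested. Flicr, a non-coding RNA beside Foxp3, read 0.39 and 0.55 in WT Treg, -1.24 and -2.66 in Nr4a-TKO, and -1.99 and -2.24 in Foxp3-KO, highest in WT Treg. Lncpint rose in Nr4a-TKO (2.02 ± 0.20, limma adjusted p = 0.00194) and in WT Treg (1.66 ± 0.20, 0.00487). Snhg3, a host of small nucleolar RNAs, read 3.28 and 3.28 in WT Tconv, 3.15 and 2.94 in WT Treg, 2.26 and 2.27 in Nr4a-TKO, and 3.06 and 2.81 in Foxp3-KO and was lower in Nr4a-TKO (-1.01 ± 0.12, 0.00287).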

How the data were processed

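RNA of 8 samples was measured on 1-colour Agilent arrays. Per the file headers, Feature Extraction 10.7.1.1 read the scans on mm9 and wrote the spot intensity after background subtraction and spatial detrending. The values deposited in the series table are the same intensity divided by a constant per array, on a linear scale, with column medians of 0.0640 to 0.0740; what the constant stands for is not stated.

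Outlier spots were left out, spots of a probe averaged, and log2 intensity scaled by the 75th percentile of each array. Probes well above background on both arrays of a group were kept. limma 3.58.1 (R 4.3.3) was fitted to 29755 probes and all 8 arrays, with Benjamini-Hochberg adjustment per comparison at 0.05 and 4 residual degrees of freedom. With 2 arrays a group, their number limits the precision. The code was tested on simulated data. Alternatives were scaling, background correction, dim-probe filter, intensity trend, groups fitted, replicate block, fold, 1 value per locus and each array left out.

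Named probes are, per comparison, the largest differences and bounds, plus the smallest F test p-values, the brightest, those of 1 group alone, and loci with most calls; some loci were picked from these by what they show. Members and lists were chosen with earlier results of these data known. Probes on chromosome 18 are counted but not named. RefSeq promoter windows are from GRCm38.p6, and no coordinate was converted.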

Additional observations from a re-analysis of the deposited data

Results flagged for a closer look

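The following 5 probes were picked because they were called opposite ways from WT Tconv in the precursor groups and also called between these groups. The p-values between these groups, from limma over all 29755 probes, were part of that choice and are no separate support. A_30_P01017692 at chr13:28975118-28977236 read -2.76 and -2.87 in WT Tconv, -2.06 and -2.01 in WT Treg, -6.19 and -5.24 in Nr4a-TKO, and -1.41 and -1.15 in Foxp3-KO. Nr4a-TKO was not well above background and Foxp3-KO lay above WT Tconv, with a fitted difference between the precursor groups of -4.44 (limma adjusted p = 0.00120), or at least 10.2-fold lower in Nr4a-TKO. The other 4 lie close together on chromosome 5, are marked F and are not independent of each other. For A_30_P01029269 at chr5:111565658-111566257 Nr4a-TKO minus Foxp3-KO was -3.15 (limma adjusted p = 0.000445). A_30_P01028152 at chr5:111538420-111540142 read -0.48 and -0.60 in WT Tconv, 1.46 and 1.40 in WT Treg, -1.94 and -1.75 in Nr4a-TKO, and 0.87 and 1.54 in Foxp3-KO, and Nr4a-TKO minus Foxp3-KO was -3.05 (0.00136). A_30_P01022023 at chr5:111602486-111603075 read -2.36 and -2.20 in WT Tconv, -0.041 and -0.21 in WT Treg, -3.69 and -3.11 in Nr4a-TKO, and -0.78 and -0.12 in Foxp3-KO, a difference of -2.95 (0.00263). A_30_P01026119 at chr5:111612191-111652286 read -3.60 and -3.57 in WT Tconv, -1.96 and -1.53 in WT Treg, -5.16 and -4.59 in Nr4a-TKO, and -2.40 and -2.45 in Foxp3-KO, with Nr4a-TKO not well above background and a fitted difference of -2.45 (0.00242), or at least 4.61-fold lower than in Foxp3-KO. In all 5 both Nr4a-TKO arrays lay below both WT Tconv arrays and both Foxp3-KO arrays above them, which the way they were picked favours.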

How the results depend on the processing

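Counts are given in the order WT Treg against WT Tconv, Nr4a-TKO against WT Tconv, Foxp3-KO against WT Tconv, Nr4a-TKO against WT Treg, Foxp3-KO against WT Treg and Nr4a-TKO against Foxp3-KO, where 1017, 2311, 874, 1629, 150 and 1676 intergenic probes were called. Requiring also a 2-fold difference left 501, 1130, 401, 789, 69 and 836, by construction fewer. With 1 value per locus 378, 904, 334, 617, 64 and 615 were called, with fewer values tested, and 976 in the F test. With no filter on dim probes 676 were called in WT Treg against WT Tconv, 543 in Foxp3-KO against WT Tconv, 33 in Foxp3-KO against WT Treg and 5442 in Nr4a-TKO against Foxp3-KO, and loci with 2 or more probes called one way went from 707 to 1444. A fit of the 2 groups alone gave 366 in Foxp3-KO against WT Tconv, 0 in Foxp3-KO against WT Treg (limma, with 1011 at an unadjusted p under 0.05) and 423 in Nr4a-TKO against Foxp3-KO. Median scaling gave 1622 in Foxp3-KO against WT Tconv, and moved the median of all probes by -0.15 in WT Treg and -0.14 in Foxp3-KO against WT Tconv. In Foxp3-KO against WT Treg normexp with quantile normalization gave 255 and an intensity trend 256. The cause of these changes was not tested, apart from those stated. The share of intergenic minus coding probes called at the same brightness was -9.29, -7.45, -4.84, -3.48, -2.31 and -2.07 percentage points. With brightness as the highest group mean it was -6.48, -3.39, -2.35, -0.645, -1.85 and 0.573, with probes above background on all 8 arrays, added after seeing the data, -7.60, -0.413, -3.02, 0.467, -1.88 and 0.770, and with median scaling -5.32 in Nr4a-TKO against WT Tconv, -2.36 in Foxp3-KO against WT Tconv and -5.65 in Nr4a-TKO against WT Treg. The sign turned in Nr4a-TKO against Foxp3-KO under the first 2 of these and in Nr4a-TKO against WT Treg under the second. Leaving out 1 array at a time gave ranges of 268 to 1336, 983 to 2555, 115 to 1168, 759 to 1949, 13 to 249 and 796 to 1908, of 1061 to 2793 in the F test, 136 to 298 for annotated non-coding RNA probes (main 272) and 382 to 754 loci. A group left with 1 array was assumed to vary like the others. Deviations of same-numbered arrays from their group means correlated at 0.0007 to 0.15 over the intergenic probes, which are not independent. With 2 arrays a group these values cannot decide whether the numbers pair the samples. With the replicate block 1002, 2296, 779, 1583, 59 and 1587 probes were called. Of 100 named differences, 61 kept their call under every alternative run and 0 turned direction. Signal over background and 2 arrays a group limit the precision.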

Other observations

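Replicates of a group differed by 4 or more on the log2 scale for 7 intergenic probes of WT Treg, 2 of Nr4a-TKO, 1 of Foxp3-KO and 0 of WT Tconv. The locus with the most such probes, chosen after the values were seen, was chr15:59966962-59972812. Its 5 probes marked F read -5.04 to -3.18 in WT Treg replicate 1 and 1.70 to 2.43 in WT Treg replicate 2. They read 1.99 to 2.67 in WT Tconv, -1.32 to 0.63 in Nr4a-TKO and -5.84 to -3.66 in Foxp3-KO. Its 4 probes marked R did not show this gap: A_30_P01025965 read 0.82 and 0.78 in WT Tconv, 2.32 and 1.79 in WT Treg, -0.62 and -1.19 in Nr4a-TKO, and 1.75 and 1.72 in Foxp3-KO.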
